A study of Homo sapiens with 21 samples.

Results

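The proteasome subunit genes were read as every array probe whose annotated gene symbol is PSMA, PSMB, PSMC or PSMD followed by a number, with the inducible subunits PSMB8 and PSMB9 left out. The rule found 51 probes of 33 genes, of 47323 probes and 20046 genes on the array. Of these 33 genes, 21 had 1 probe and 12 had several. PSMA7, PSMC5, PSMD7 and PSMD13 were not analysed here.

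The series measured total RNA of cultured human cells on Illumina expression BeadChips, 1 array per sample, and concerns defects of DNA mismatch repair. The 21 arrays used here form 7 groups of 3. KLE, an endometrial carcinoma line, makes up 5 groups: a control hairpin RNA (shCTRL), hairpins 059 and 062 against MSH3, and hairpins 543 and 603 against MSH6, so every KLE sample carries a hairpin. The remaining groups, labelled CTRL, come from other lines: HCT116 is a colorectal carcinoma line with its own mismatch repair deficiency, and MCF10A is a breast epithelial line that does not form tumours. MSH3 and MSH6 are mismatch repair proteins that recognise mispaired or unpaired bases in DNA. The KLE titles carry the letters A, B and C, here replicates 1, 2 and 3. The labels do not say that replicates came from separate cultures, so p-values measure the spread between these samples, which may be technical. No dose, time or culture detail separates the groups in the labels.

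The proteasome is the large protease that degrades ubiquitin-tagged proteins in the cytosol and nucleus. Its barrel-shaped core particle has outer alpha rings, which gate the entrance, and inner beta rings, which hold the proteolytic sites. A regulatory particle sits on the ends of the barrel: its base has a ring of ATPases that unfold substrates and non-ATPase subunits that bind ubiquitin, and its lid removes the ubiquitin chains. In mammalian cells the transcription factor NRF1 (NFE2L1) raises many subunit genes together when proteasome activity is low, through antioxidant response elements in their promoters.

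Because that element is the best-known common feature of these promoters, its core TGACNNNGC was searched on both strands of the 250 bases before each gene start in the RefSeq promoter table (GRCh38.p14). Of the 33 genes, 29 had an entry, with 34 promoters in all. The core was present in 6 of these 34 promoters (17.6%) and in 10.9% of all 35116 promoters of the table. The 6 genes were PSMA4, PSMB3, PSMD3, PSMD5, PSMD9 and PSMD12, and the windows below give the core in capitals with 15 bases on each side, written 5′ to 3′ on the strand of the gene. For the first PSMD9 window the core reads on the opposite strand, so its complement is in capitals. All but PSMD9 were called higher in HCT116 than in KLE shCTRL, as were 16 of 32 proteasome genes and 29.3% of all genes. PSMD9 was called lower (-0.47), as were 7 of the 32 and 25.1% of all genes. In MCF10A against KLE shCTRL, PSMA4 (0.96) and PSMD5 (0.71) were called higher, as were 5 of the 32 and 27% of all genes. There PSMB3 (-0.40), PSMD3 (-0.23), PSMD9 (-0.27) and PSMD12 (-0.52) had negative differences.
PSMA4, chr15:78540645-78540683, plus strand: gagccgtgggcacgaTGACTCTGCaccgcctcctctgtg
PSMB3, chr17:38752622-38752660, plus strand: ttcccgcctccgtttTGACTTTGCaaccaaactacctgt
PSMD3, chr17:39980755-39980793, plus strand: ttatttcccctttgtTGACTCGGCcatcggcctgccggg
PSMD5, chr9:120843033-120843071, minus strand: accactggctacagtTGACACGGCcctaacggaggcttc
PSMD9, chr12:121888626-121888664, plus strand: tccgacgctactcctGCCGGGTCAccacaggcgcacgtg
PSMD9, chr12:121888673-121888711, plus strand: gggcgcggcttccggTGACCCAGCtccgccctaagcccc
PSMD12, chr17:67366719-67366757, minus strand: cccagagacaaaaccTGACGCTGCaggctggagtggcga
The CCAAT box, CCAAT, was present in 14 of the 34 promoters (41.2%) and in 32% of all. The ETS-type sequence CCGGAAG was present in 7 (20.6%) and in 8.52% of all. A match is a description of the letters in this window, and its relation to binding or to the array values was not tested.

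The median intensity of an array was 87.71 to 122.2 units, and no value was below 66.3 or above 24678, so background remains in dim probes and their differences are understated. The first principal component held 51.1% of the variance and the second 13.2%. Levels are given as log2(intensity + 16) after quantile normalization, and differences are on that scale with their standard error (SE). The median of an array was 6.92 on this scale. KLE expressed PAX8, EMX2 and WT1, 3 of 6 Mullerian markers, while ESR1, PGR and MUC16 were less than 1 above the array median. MCF10A expressed all 4 basal breast markers that were read, KRT5, KRT14, ITGB4 and LAMB3. KRT6A and TP63 were also on the list and were not read here. Of the 4, ITGB4 and LAMB3 were also more than 1 above the median in KLE shCTRL, at 2.31 and 1.61. HCT116 expressed 1 of 6 intestinal markers, CDX2. Of the leukocyte, endothelial and fibroblast markers, CD14 and DCN in MCF10A were more than 1 above the median, and none was in HCT116 or KLE shCTRL. DCN, a fibroblast marker, was 0.22 above the median in shCTRL, 0.85 with hairpin 059 and 1.3 with hairpin 062, and its part in the hairpin comparisons was not tested.

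The hairpins were checked on their targets with every probe tested. MSH6 fell to 23% of shCTRL with hairpin 543 on the fold scale (log2 difference -2.12, SE 0.18, adjusted p = 6.1e-05) and to 52.5% with hairpin 603 (-0.93, SE 0.18, adjusted p = 0.021). A dim MSH3 probe was at 57.9% of shCTRL with hairpin 059 (adjusted p = 0.026) and at 63.7% with hairpin 062 (adjusted p = 0.076). The bright MSH3 probe stood at 97.5% and 87.5%, neither past the test, so the knockdown of MSH3 was not seen on both of its probes.

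Of the 33 proteasome genes, 31 passed the filter on dim probes in the KLE arrays and 32 in the control arrays of the lines. PSMA8, the testis alpha subunit, passed in neither, with levels of 6.62 to 6.83 over the 21 arrays. PSMB11, the beta subunit of thymic cortical epithelium, passed in the lines only and was near the array median there. Each of the other 31 genes was tested in both sets of arrays.

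PSMC4 was the 1 proteasome gene called with the MSH6 hairpins in the fit without the letter. It encodes an ATPase of the base ring. On its brightest probe (ILMN_2395389) the levels were 13, 12.73 and 12.77 in shCTRL replicates A, B and C. They were 13.54, 13.54 and 13.33 with hairpin 543. They were 13.65, 13.57 and 13.6 with hairpin 603. All 6 MSH6 hairpin arrays lay above all 3 shCTRL arrays. With the MSH3 hairpins the levels were 13.07, 13.22 and 13.24 (059) and 12.94, 13.32 and 13.37 (062), so hairpin 059 lay just above shCTRL and hairpin 062 overlapped it. As deposited, before normalization, the same probe read 6488 to 11030 in shCTRL and 8728 to 12910 with the MSH6 hairpins, which overlap.

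PSMC4 rose with hairpin 543 by a log2 difference of 0.64 (SE 0.11, 1.56-fold, adjusted p = 0.035). With hairpin 603 it rose by 0.78 (SE 0.11, 1.71-fold, adjusted p = 0.0033). The mean over both MSH6 hairpins was 0.71 (SE 0.097, 1.63-fold, adjusted p = 0.0045). With the MSH3 hairpins the differences were 0.34 for 059 (adjusted p = 0.40), 0.38 for 062 (adjusted p = 0.29) and 0.36 for their mean (adjusted p = 0.23). These comparisons share the shCTRL arrays. Against each other, the MSH3 hairpin mean was lower than the MSH6 hairpin mean by -0.34 (SE 0.079, adjusted p = 0.047), with overlapping arrays. Hairpin 603 against 543 gave 0.14 (adjusted p = 0.96) and hairpin 062 against 059 gave 0.03 (adjusted p = 1), neither past the test.

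The rise with the MSH6 hairpins depends on the scaling of the arrays. With median scaling in place of quantile normalization the MSH6 mean was 0.48 (adjusted p = 0.29), hairpin 543 was 0.44 (adjusted p = 1) and hairpin 603 was 0.52 (adjusted p = 0.23). Without normalization the MSH6 mean was 0.39 (adjusted p = 0.82). PSMC4 stayed higher than shCTRL with both MSH6 hairpins under each scaling, while hairpin 059 was at 0.03 with median scaling and -0.13 without normalization. The medians of all genes for hairpin 059 were then -0.133 and -0.293, so PSMC4 lay above the median gene in both. The hairpin 543 call was also lost in 5 of the 6 fits that left out 1 array, with differences of 0.59 to 0.71 and adjusted p from 0.072 to 0.21.

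The other PSMC4 probes, fitted with every probe as a feature, had the same sign with each hairpin. On probe ILMN_2287888 the levels were 12.16, 11.69 and 12.03 in shCTRL, 12.88, 12.65 and 12.52 with hairpin 543, and 13.22, 13 and 12.73 with hairpin 603. The MSH6 hairpin arrays all lay above the shCTRL arrays, while hairpins 543 and 603 overlapped each other. The MSH6 mean was 0.87 (SE 0.13, adjusted p = 0.0093), with 1.02 for hairpin 603 (adjusted p = 0.0046) and 0.73 for hairpin 543 (adjusted p = 0.12). On probe ILMN_1687887 the levels were 12.54, 11.67 and 11.8 in shCTRL, 12.67, 12.51 and 12.51 with hairpin 543, and 13.12, 12.33 and 12.64 with hairpin 603. Here shCTRL replicate A lay inside the MSH6 hairpin values, and the MSH6 mean was 0.62 (SE 0.21, adjusted p = 0.29). The MSH3 mean was 0.40 on ILMN_2287888 (adjusted p = 0.44) and 0.23 on ILMN_1687887 (adjusted p = 1).

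**Figure D1:**
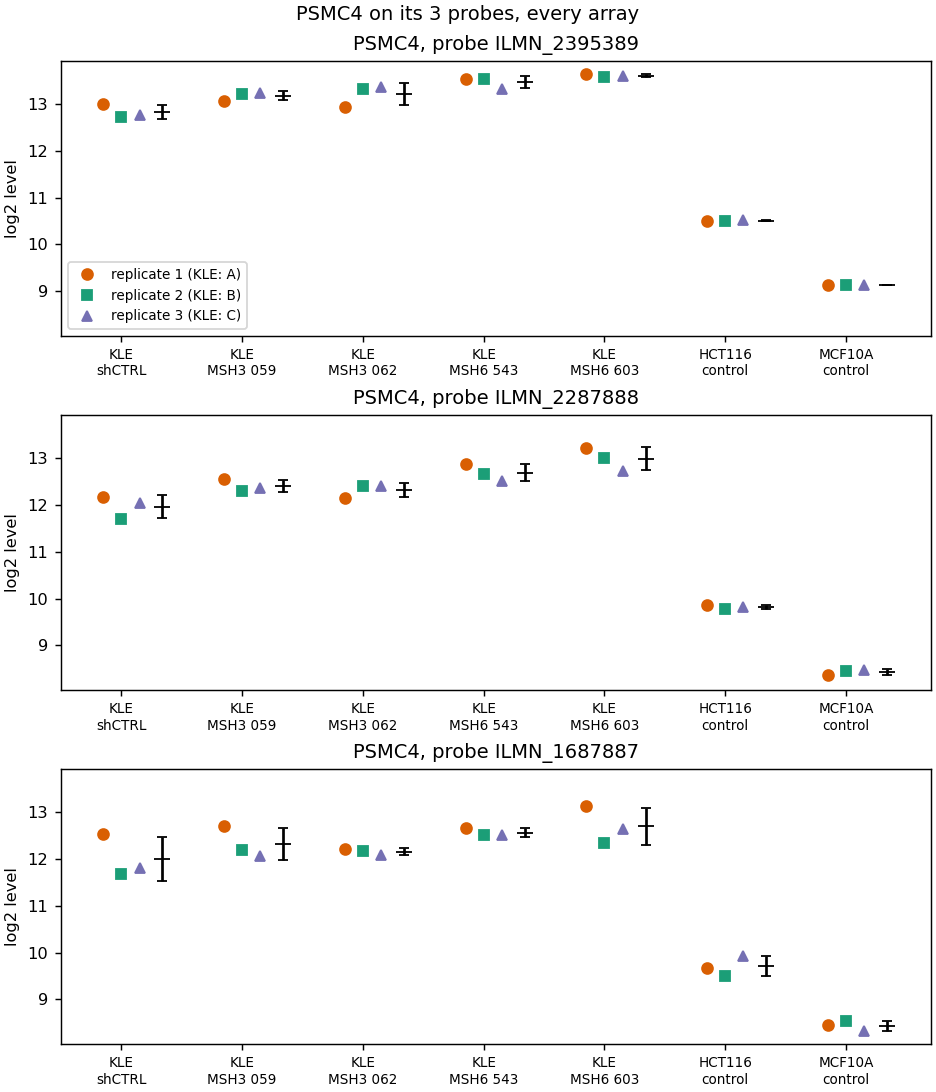
PSMC4 log2 levels on its 3 probes in every array, 1 panel per probe, with the 7 groups on the horizontal axis. Symbols are single arrays by replicate, and the black bar is the group mean with its SD (n = 3). On each probe the KLE groups lie above HCT116, and HCT116 above MCF10A, and on the top probe all 6 MSH6 hairpin arrays lie above the 3 shCTRL arrays.

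Compared within letters, PSMC4 was higher than the shCTRL array of the same letter by 0.54, 0.81 and 0.57 (A, B, C) with hairpin 543 and by 0.65, 0.85 and 0.83 with hairpin 603. With the MSH3 hairpins, letter A gave 0.07 for 059 and -0.06 for 062. Letters B and C gave 0.50 and 0.47 for 059, and 0.59 and 0.60 for 062. The gap between MSH3 and MSH6 hairpins was accordingly -0.59 in A, -0.28 in B and -0.16 in C. When the letter A arrays were left out, a fit chosen after seeing the data with 2 arrays per group, PSMC4 also rose with the MSH3 hairpins, by 0.54 for their mean (adjusted p = 0.00017), beside 0.76 for the MSH6 mean (adjusted p = 7.7e-06).

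Among all 31 proteasome genes tested in KLE, PSMC4 was the 1 gene called with hairpin 543, where 0.323% of 14872 genes were called and 0.121% were called higher. It was also the 1 called with hairpin 603, where 2.17% of all genes were called and 0.726% higher, and for the MSH6 mean, where 0.935% were called and 0.316% higher. No proteasome gene was called with hairpin 059 (limma, 2 genes at unadjusted p under 0.05, both higher), where 0.397% of all genes were called. None was called with hairpin 062 (4 at unadjusted p under 0.05, 2 in each direction), where 0.343% were. None was called for the MSH3 mean (3 at unadjusted p under 0.05), where 0.343% were. These shares are of adjusted calls, and the share of all genes at unadjusted p under 0.05 is not given here. The median log2 difference of the 31 genes was -0.013 with 059, -0.104 with 062, 0.025 with 543 and 0.08 with 603, beside medians of all genes of -0.008, -0.006, -0.001 and 0.003. The sign of such small differences depends on the scaling: with median scaling the 4 medians were -0.324, -0.230, -0.109 and -0.206, beside -0.133, -0.042, -0.038 and -0.084 for all genes, so the median of the proteasome genes then lay below that of all genes with each hairpin.

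With the letter as a block, the hairpin 603 comparison called 5 of 31 proteasome genes, all higher, where 3.03% of all genes were called higher. These were PSMC4 (adjusted p = 0.0021 with the block), PSMC1 (0.39, adjusted p = 0.011), PSMA3 (0.41, adjusted p = 0.038), PSMD6 (0.28, adjusted p = 0.049) and PSMA1 (0.20, adjusted p = 0.029). PSMC1 is a second ATPase of the base ring, PSMA3 and PSMA1 are alpha ring subunits and PSMD6 belongs to the lid. Without the block these 4 had adjusted p from 0.10 to 0.61. The block added PSMC1 to the MSH6 mean (0.34, adjusted p = 0.018), which made 2 of 31 where 1.65% of all genes were called higher. The 5 genes are 16.1% of the 31. The direction of PSMA1 and PSMD6 with hairpin 603 turned to -0.14 and -0.08 with median scaling, and PSMC1 and PSMA3 were then at 0.02 and 0.07, with the median of all genes at -0.084.

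The alpha ring had positive differences in 5 of 6 genes with hairpin 603, from -0.18 for PSMA2 to 0.41 for PSMA3, none past the test without the block, and 1 of 6 was positive with median scaling. PSMA3 levels were 11.95, 11.84 and 11.87 in shCTRL and 11.98, 12.47 and 12.45 with hairpin 603. On this probe all 3 hairpin arrays were higher, replicate A by the least. On the second PSMA3 probe shCTRL was 11.16, 10.89 and 10.92 and hairpin 603 was 11.02, 11.33 and 11.3, which overlap. With hairpin 062, PSMA2, an alpha ring subunit, had a difference of -0.33 (adjusted p = 0.86).

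The beta ring, which includes the catalytic subunits PSMB5, PSMB6 and PSMB7, stayed within -0.24 to 0.10 of shCTRL with each of the 4 hairpins in all 7 genes. Its medians were -0.057 with 059, -0.124 with 062, -0.073 with 543 and -0.085 with 603, and with median scaling all 7 genes were negative with each hairpin. PSMB3, a non-catalytic beta subunit, had the lowest values of this ring with the MSH6 hairpins, -0.18 with 543 and -0.16 with 603, neither past the test. PSMB10, the inducible subunit that replaces PSMB7 in immunoproteasomes, was at -0.34 with hairpin 543 (adjusted p = 0.89) and at 0.25 with hairpin 062 (adjusted p = 0.93). Hairpin 603 against 543 differed for PSMB10 by 0.43 (adjusted p = 0.49).

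In the base ring all 5 tested ATPases had positive differences with hairpin 603, from 0.04 for PSMC3 to 0.78 for PSMC4, of which 2 stayed positive with median scaling. PSMC1 levels were 12.9, 12.68 and 12.74 in shCTRL, 13.42, 12.89 and 12.87 with hairpin 543, and 13.31, 13 and 13.16 with hairpin 603. The hairpin 603 arrays lay above shCTRL, while hairpin 543 overlapped it. On the second PSMC1 probe shCTRL was 12.49, 12.91 and 12.86 and hairpin 603 was 13.13, 13.2 and 13.14, also above. The base non-ATPase subunits, PSMD1 and PSMD2, which are large scaffolds, and PSMD4, a ubiquitin receptor, were at -0.35, -0.30 and -0.16 with hairpin 062, and none passed.

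In the lid, PSMD14, the deubiquitinase that removes chains from substrates, was at 0.21 with 059, 0.18 with 062 and 0.23 with 603, none past the test, and at -0.14, 0.01 and -0.09 with median scaling, which put the median gene at -0.133, -0.042 and -0.084. PSMD6 had a second, dimmer probe (ILMN_1779633), which was called with every probe as a feature, by 0.45 with hairpin 603 (SE 0.088, adjusted p = 0.024) and 0.38 for the MSH6 mean (adjusted p = 0.044). Its levels were 10.35, 10.11 and 10.27 in shCTRL, 10.64, 10.56 and 10.46 with 543, and 10.82, 10.69 and 10.58 with 603, so the MSH6 hairpin arrays all lay above shCTRL. PSMD8, a lid subunit, was at -0.11 with 059 and -0.30 with 062, each with an SE of 0.64, because its KLE values split by letter. The base assembly chaperones PSMD5, PSMD9 and PSMD10 lay between -0.24 and 0.10 with the 4 hairpins. PSMD9 was at -0.16 with 543 and PSMD10 at -0.14 with 603, neither past the test.

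**Figure D2:**
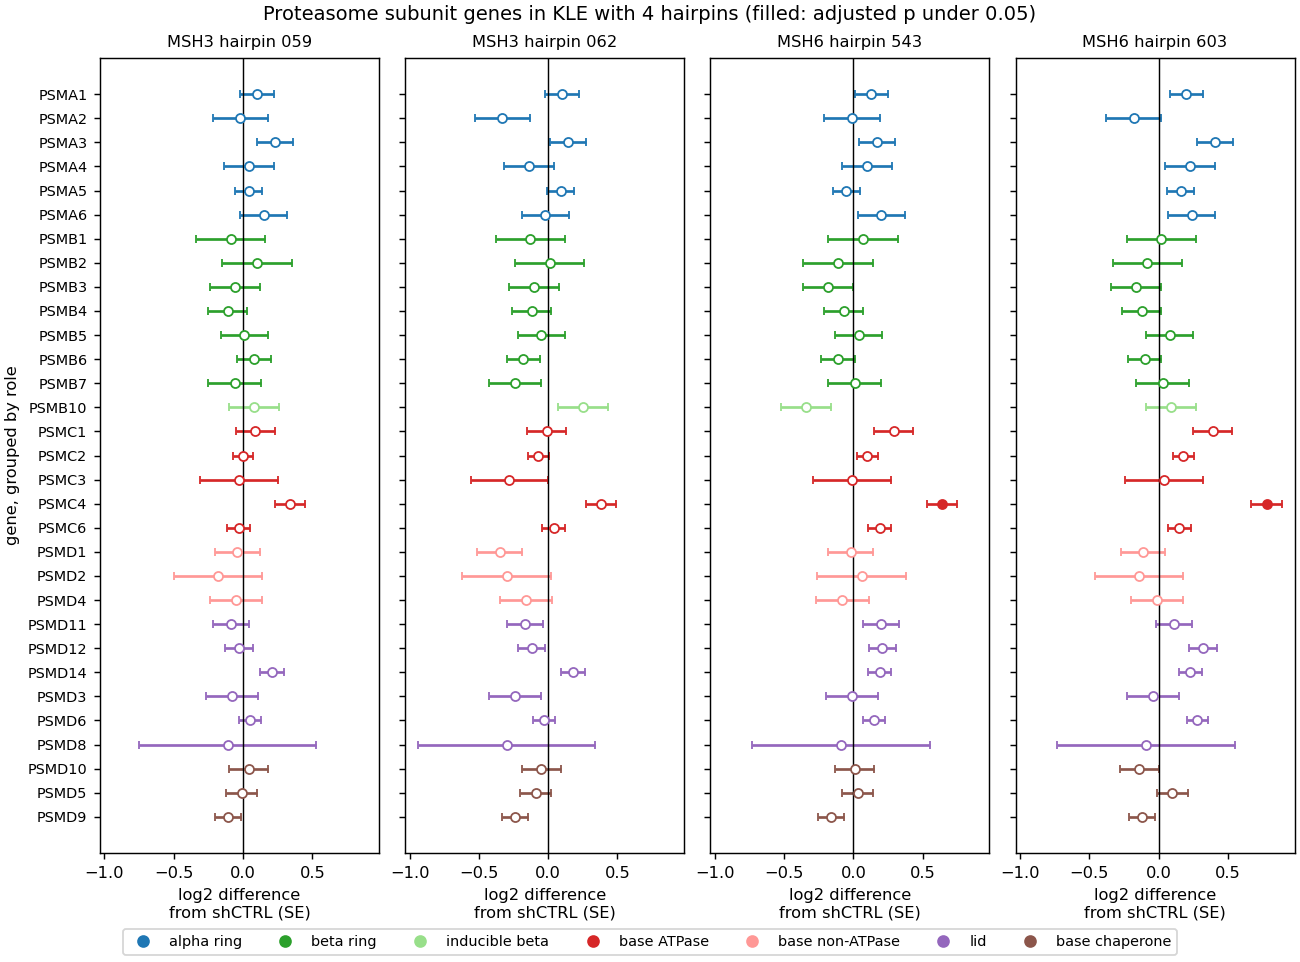
Log2 difference from shCTRL with its SE for the 31 proteasome genes tested in KLE, 1 panel per hairpin, genes coloured by role. Filled symbols passed the test in the fit without the letter: only PSMC4, with hairpins 543 and 603. PSMD8 has the widest error bars, with an SE of 0.64.

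Where MSH3 and MSH6 hairpins were compared directly, 25 of 31 proteasome genes had negative differences (MSH3 lower), with a median of -0.119 beside -0.008 for all genes. With median scaling and without normalization 26 of 31 were negative. Of the 31 genes, 2 passed, both lower with the MSH3 hairpins, PSMC4 and PSMD12, where 2.08% of all genes were called in either direction and 0.948% lower. PSMD12 encodes a lid subunit. Its levels were 10.09, 10.07 and 10.06 in shCTRL, 10.02, 10.13 and 9.98 with 059, and 10.23, 9.9 and 9.74 with 062. They were 10.34, 10.3 and 10.21 with 543, and 10.3, 10.43 and 10.44 with 603. The MSH6 hairpin arrays were the higher ones, and replicate A of hairpin 062 overlapped them. The difference was -0.34 (SE 0.071, 0.791-fold, adjusted p = 0.03). The other 3 PSMD12 probes lay near the array median in KLE.

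With the letter as a block, 7 proteasome genes were lower with the MSH3 than the MSH6 hairpins, where 4.86% of all genes were called lower. Besides PSMC4 and PSMD12 (adjusted p = 0.022 and 0.011) they were PSMC1 (-0.30, adjusted p = 0.0075), PSMD11 (-0.29, adjusted p = 0.013), PSMA4 (-0.22, adjusted p = 0.017), PSMD6 (-0.20, adjusted p = 0.039) and PSMC2 (-0.18, adjusted p = 0.027). PSMC2 is an ATPase of the base ring, PSMD11 a lid subunit and PSMA4 an alpha ring subunit. The highest positive differences were PSMB10 at 0.30 (adjusted p = 0.35), PSMB2 at 0.15 and PSMB3 at 0.09. All 5 ATPases and all 6 lid genes were negative, from -0.34 to -0.17 and from -0.34 to -0.01, and so they were under both other scalings. PSMC4 was at -0.33 (adjusted p = 0.79) and PSMD12 at -0.38 (adjusted p = 1) with median scaling, so neither call held there.

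The pairs of hairpins against one target showed no called proteasome gene in limma, 0 of 31 for hairpin 603 against 543 where 1.18% of all genes were called, and 0 of 31 for 062 against 059 where 0.141% were. At unadjusted p under 0.05 there were 1 and 0 genes, with the share of all genes at that cut not given here. For 603 against 543 the highest were PSMB10 at 0.43, PSMA3 at 0.24 and PSMA5 at 0.21, and the lowest PSMD2 at -0.20, PSMA2 at -0.17 and PSMD10 at -0.16. For 062 against 059, PSMB10 at 0.17, PSMC6 at 0.08 and PSMA5 at 0.05 were highest, and PSMD1 at -0.31, PSMA2 at -0.31 and PSMB6 at -0.26 lowest. These signs depended on the scaling: 27 of 31 genes were negative for 062 against 059, and with median scaling 24 were positive, while 22 were positive for 603 against 543 and with median scaling 26 were negative. Median scaling moved all genes the same way, to medians of 0.075 and -0.045, beside 0.105 and -0.118 for the proteasome genes.

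The KLE arrays of letter A stood apart from those of B and C in these genes. With a letter term beside the group term, 18 of 31 proteasome genes differed between A and the mean of B and C, 13 higher in A and 5 lower, where 39.7% of all genes were called, 23.1% higher and 16.6% lower. Among genes with a log2 level of 9.84 or more, a range chosen after seeing the data, 11 of 23 proteasome genes and 61.7% of all genes were called, so the share in these genes was not above that background. What the letters stand for is not given in the labels. Without the letter A arrays the proteasome genes called were 7 of 31 with hairpin 059 (12.3% of all genes), 8 with 062 (17.6%), 1 with 543 (5.49%) and 11 with 603 (17.7%). They were 12 for the MSH3 mean (16.4%), 7 for the MSH6 mean (13.4%), 1 for hairpin 603 against 543 (8.57%) and 4 for 062 against 059 (13.8%). MSH3 against MSH6 then called 12 of 31, all lower with the MSH3 hairpins, where 17.5% of all genes were called in either direction and 8.97% lower.

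PSMD8 had the widest gap. Its levels in letters A, B and C were 12.02, 11.32 and 11.07 in shCTRL, 12.68, 10.54 and 10.85 with 059, and 11.78, 10.88 and 10.84 with 062. They were 12.28, 10.95 and 10.91 with 543, and 12.67, 10.64 and 10.83 with 603. In all 5 groups A was the highest, and the A arrays did not overlap the B and C arrays. The difference was 1.40 (SE 0.15, 2.65-fold, adjusted p = 2.2e-05). PSMD2 was next at 0.72 (SE 0.059, adjusted p = 2.3e-06), followed by the ATPase PSMC3 at 0.55, the beta subunit PSMB1 at 0.53, and the alpha subunits PSMA4 at 0.38, PSMA2 at 0.37 and PSMA6 at 0.35. Lower in A were PSMB2 at -0.50, PSMD3 at -0.37 and PSMB5 at -0.32, beta ring and lid subunits.

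**Figure D3:**
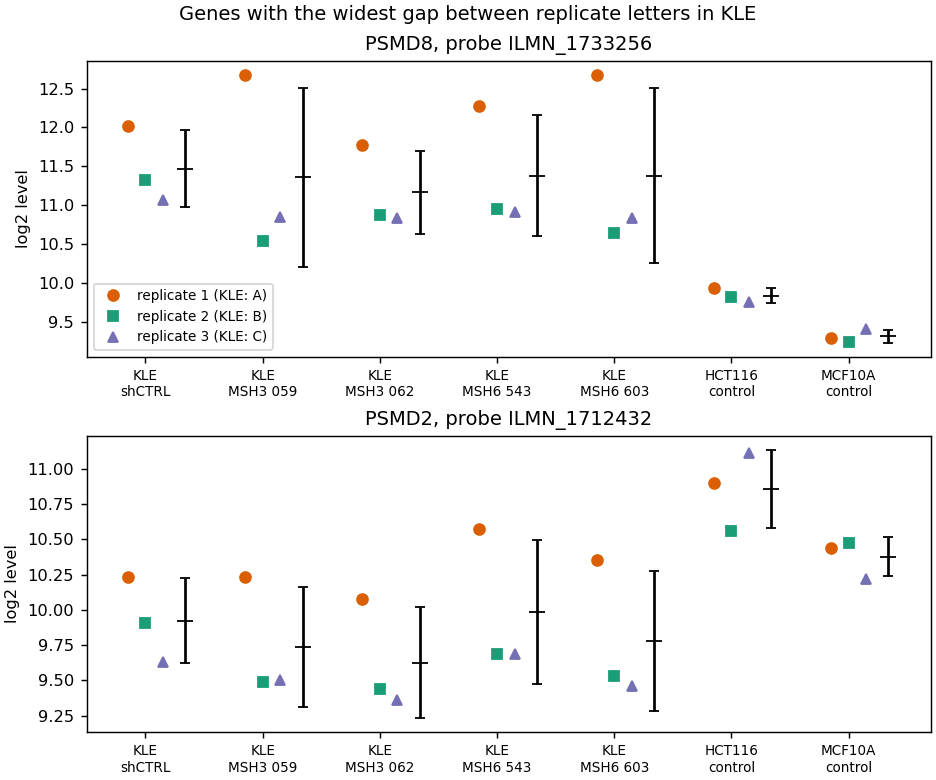
Log2 levels of PSMD8 and PSMD2 in every array, with the 7 groups on the horizontal axis, symbols by replicate and black bars for the group mean with its SD (n = 3). In each KLE group the replicate A array is the highest of the 3, by the most for PSMD8.

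The letter differences of single genes depended on the probe and on the scaling. Of 11 genes with several tested probes, 6 had the same sign on all of them, and 2, PSMA4 and PSMC1, were called in opposite directions on different probes. On 1 PSMA4 probe shCTRL read 11.05, 10.68 and 10.72 in A, B and C, and on the other 9.87, 10.18 and 10.05. With median scaling 24 proteasome genes were higher in A and 0 lower, and without normalization 27 and 0. The median of all genes was then 0.151 and 0.277 higher in A. The share of all genes called under these scalings is not given here.

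Larger differences separated the cell lines. HCT116 was higher than MCF10A in 26 of 32 proteasome genes (81.2%) and lower in 0, where 41.5% of all genes were called in either direction and 22.6% higher (limma). At unadjusted p under 0.05 the counts were 28 higher and 1 lower, with the share of all genes at that cut not given here. The median difference of the 32 genes was 0.673, beside 0.017 for all genes. Under quantile normalization, median scaling and no normalization alike, 30 of the 32 were positive. The 30 include PSMB11, which lay near the array median. Among genes with a log2 level of 9.98 or more, 21 of 24 proteasome genes were higher in HCT116, where 28.2% of such genes were. In bulk RNA, fewer cells of a kind and less RNA per cell cannot be told apart, and here each line also differs in tissue of origin and transformation.

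By role, the higher genes in HCT116 were 4 of 6 alpha ring genes, all 7 beta ring genes, all 5 base ATPases, all 3 base non-ATPase subunits, 5 of 6 lid genes, PSMB10 and 1 of 3 base chaperones. PSMD12 led, with levels of 11.44, 11.19 and 11.5 in HCT116 and 9.46, 9.51 and 9.68 in MCF10A, a difference of 1.82 (SE 0.09, 3.54-fold, adjusted p = 3.1e-07). PSMC4 followed, at 10.5, 10.5 and 10.52 against 9.14, 9.14 and 9.13, a difference of 1.37 (SE 0.073, 2.58-fold, adjusted p = 5e-07). PSMB3 was 1.14 higher, PSMC2 1.11, PSMC1 1.05, PSMC3 1.04 and PSMD1 1.03. PSMD14 was 0.91 higher, PSMA4 0.89 and PSMA3 0.87. The 3 catalytic beta subunits were higher by 0.31 (PSMB5), 0.78 (PSMB6) and 0.67 (PSMB7), each past the test. Of those that did not pass, PSMA2 was at -0.19, PSMD9 at -0.20, PSMD10 at 0.18, PSMA6 at 0.22, PSMD8 at 0.52 (adjusted p = 0.065) and the near-background PSMB11 at 0.12. All 10 genes with several tested probes had the same sign on each probe. The count of genes called ranged from 19 to 29 over the settings tried, with the share of all genes under each not given here.

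HCT116 against KLE shCTRL gave a mixed picture: 16 of 32 proteasome genes were higher in HCT116 and 7 lower (71.9%), where 54.4% of all genes were called, 29.3% higher and 25.1% lower. Among genes with a log2 level of 9.98 or more the shares were closer, 18 of 24 proteasome genes and 67.2% of all such genes. With median scaling the split was 19 higher and 5 lower, and without normalization 17 and 4. The share of all genes under these scalings is not given here. PSMA4 was highest above KLE, at 12.63, 12.61 and 12.75 in HCT116 against 11.05, 10.68 and 10.72 in shCTRL, 3.60-fold (difference 1.85, SE 0.12, adjusted p = 1.1e-06). Its second probe gave 1.28. PSMC3 was 1.33 higher, PSMD12 1.30, PSMD5 1.0 and PSMD2 0.93. PSMA1 and PSMA5, also of the alpha ring, were each 0.88 higher. Lower in HCT116 were PSMC4 by -2.32, PSMD8 by -1.63 and PSMD10 by -0.88, and with smaller differences PSMB2, PSMD9, PSMB4 and PSMA6.

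MCF10A against KLE shCTRL ran mostly the other way: 16 of 32 proteasome genes were lower in MCF10A and 5 higher (65.6%), where 52.7% of all genes were called, 27% higher and 25.7% lower. With median scaling 12 were lower and 2 higher, and without normalization 8 and 2, again without the share of all genes. Among genes with a log2 level of 9.98 or more, 18 of 24 proteasome genes and 64% of all such genes were called. The lower genes included PSMC4 at -3.69, PSMD8 at -2.15, PSMB2 at -1.31, PSMC1 at -1.14, PSMD10 at -1.06 and PSMA3 at -1.05. The 5 higher genes were PSMA4 at 0.96, PSMD5 at 0.71, PSMA1 at 0.46, PSMD2 at 0.45 and PSMC3 at 0.29. PSMB4 at -0.87 and PSMC2 at -0.75 were also among the lower 16. Both comparisons with KLE share the shCTRL arrays. These carry a control hairpin, which the HCT116 and MCF10A labels do not name, so line and hairpin cannot be told apart. The mean level over the proteasome genes was 10.93 ± 0.023 (SD, n = 3) in HCT116, 10.7 ± 0.037 in KLE shCTRL and 10.26 ± 0.097 in MCF10A. HCT116 had the highest mean level in 21 of the 32 genes, KLE in 10 and MCF10A in 1, and MCF10A had the lowest in 23. The 21 include PSMB11, which lay near the array median (6.98, 6.96 and 6.92 in HCT116) and did not pass the filter in the KLE arrays.

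**Figure D4:**
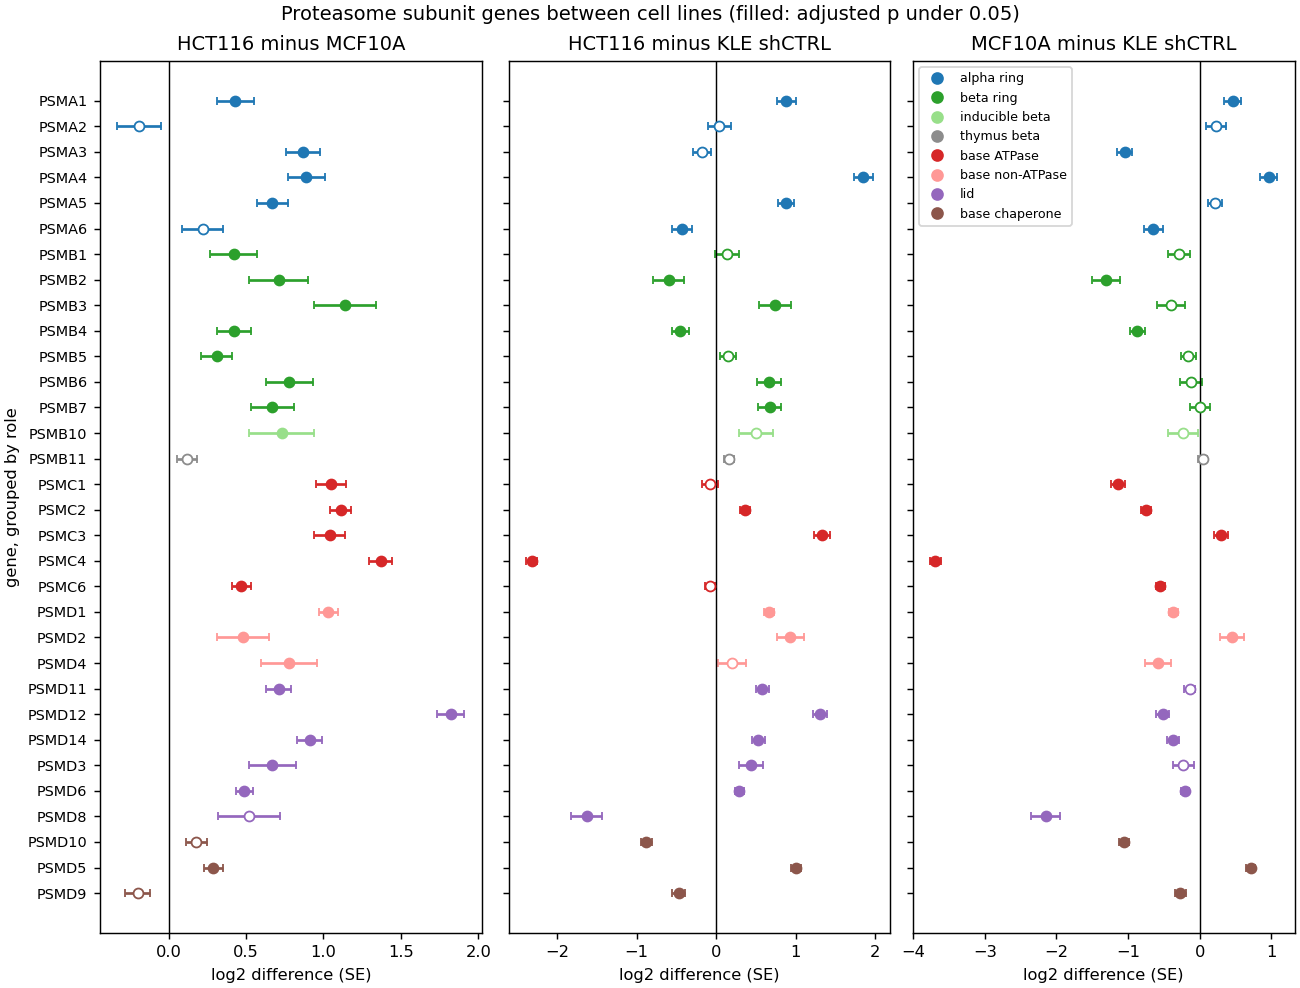
Log2 difference with its SE for the 32 proteasome genes tested in the 3 control groups, coloured by role, with filled symbols for adjusted p under 0.05. In the first panel 30 of 32 genes lie to the right of 0 (HCT116 higher than MCF10A), and PSMC4 and PSMD8 stand far to the left in both comparisons with KLE.

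PSMC4 and PSMD8 were the proteasome genes with the largest excess in KLE. PSMC4 in HCT116 was at 0.20-fold of shCTRL (SE 0.073 on the log2 scale, adjusted p = 1.2e-08) and in MCF10A at 0.0773-fold (adjusted p = 5.5e-10). Its other probes gave -2.14 and -2.30 in HCT116 and -3.53 and -3.57 in MCF10A. PSMD8 read 9.94, 9.82 and 9.75 in HCT116 and 9.29, 9.24 and 9.41 in MCF10A, all below every KLE array. It was at 0.323-fold of shCTRL in HCT116 (SE 0.20, adjusted p = 1e-04) and 0.225-fold in MCF10A (adjusted p = 1.6e-05).

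Both genes lie on chromosome 19, with 41 tested genes between them in the RefSeq gene order. The 10 tested genes on each side of PSMC4 were mostly lower outside KLE as well: 19 of these 20 were called lower in HCT116 and 18 in MCF10A, with median differences of -1.90 and -1.97. Among them were SUPT5H, a transcription elongation factor, at -3.11 and -3.78, DLL3, a Notch ligand, at -4.27 and -3.53, AKT2, a kinase of insulin signalling, at -2.01 and -2.01, and FBL, a nucleolar methyltransferase, at -1.86 and -2.28. Around PSMD8, 14 of 20 neighbours were called lower and 1 higher in HCT116, and 13 lower and 2 higher in MCF10A, with medians of -0.71 and -0.75. Of all genes, 25.1% were called lower in HCT116 and 25.7% in MCF10A. ACTN4, an actin crosslinker, was at -3.41 and -3.93, and EIF3K, a translation initiation factor subunit, at -2.76 and -2.90. Around the other proteasome genes the neighbours' medians stayed within -0.35 to 0.37 in both comparisons. A gene could pass the filter through the 3 shCTRL arrays alone, and a gene dim in the other lines would then come out lower there. Whether single neighbours passed in this way was not tested. Among the genes tested in the KLE arrays, the 20 neighbours of PSMC4 included BLVRB and not CCNP, which was 1 of the 20 in the lines. The MSH6 hairpin mean called none of these 20 neighbours, whose differences ran from -0.65 to 0.35 (median -0.06). Hairpin 603 called 1 of the 20, SELENOV, lower at -1.07 (adjusted p = 0.02), and hairpin 543 called 0. The neighbours were chosen by position after the values of PSMC4 and PSMD8 were known, and the cause of the shared difference was not tested.

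**Figure D5:**
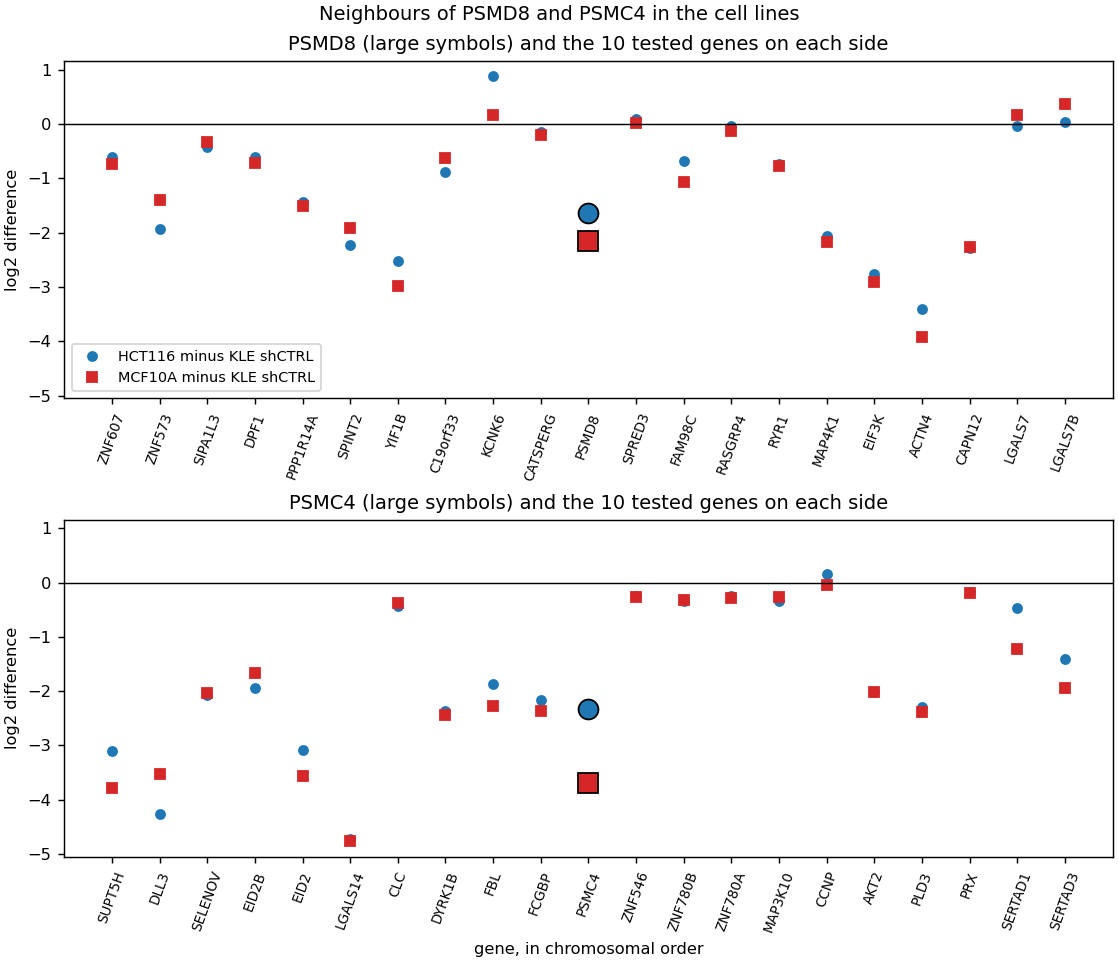
Log2 difference from KLE shCTRL for PSMD8 and PSMC4 (large outlined symbols) and the 10 tested genes on each side in chromosomal order, circles for HCT116 and squares for MCF10A. Most neighbours of PSMC4 lie below 0 in both lines, with a median of -1.90 for HCT116 and -1.97 for MCF10A.

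Of 31 related genes tested (activators, assembly factors, associated factors, transcriptional control and ubiquitin supply), 0 were called in limma in any of the 9 comparisons of hairpins, where 0.141% to 2.17% of all genes were called. HCT116 was higher than MCF10A in 11 and lower in 4, where 41.5% of all genes were called. The higher ones included ADRM1, a ubiquitin receptor of the base, at 1.07, the polyubiquitin gene UBB at 0.87, the deubiquitinase UCHL5 at 0.73, and the core assembly factors PSMG3 at 0.71 and POMP at 0.70. PSMB8, an inducible catalytic subunit left out of the rule, was lower in HCT116 than in MCF10A, at -1.58, and so was the activator subunit PSME1, at -0.65. HCT116 against KLE called 15 higher and 9 lower, where 54.4% of all genes were called, with PSMB8 at -2.52, PSMB9 at -0.69, PSME1 at -1.35 and PSME2 at -1.24 among the lower. PSME3, the subunit of a nuclear activator, was at 1.49. MCF10A against KLE called 8 higher and 10 lower, where 52.7% of all genes were called, with PSME2 at -1.46, PSMB8 at -0.94 and PSMB9 at -0.68. PSMB8, PSMB9, PSME1 and PSME2 were thus highest in KLE of the 3 lines. The inducible subunit PSMB10 had its highest mean in HCT116, at 10.2, 10.89 and 9.95 against 9.78, 9.92 and 9.85 in KLE shCTRL. That difference of 0.5 did not pass the test after quantile normalization. NFE2L1 was 0.46 higher in HCT116 and 0.54 higher in MCF10A than in KLE.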

How the data were processed

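Per the submitters' processing notes the deposited intensity values were exported with GenomeStudio. Its version is not given in the sources used here. They are linear, with no sign of background subtraction or normalization between arrays. All 21 columns were used and 0 were left out.

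Values were taken as log2(intensity + 16) and quantile-normalized over the 21 arrays. A fit used the probes that exceeded the array median in 3 or more of its arrays, and the brightest probe stood for a gene. Two-sided moderated tests were run with limma 3.58.1 in R 4.3.3, on 15 KLE arrays (14872 genes) or 9 control arrays (14270 genes), with p-values adjusted by Benjamini-Hochberg over every gene tested and a threshold of 0.05. The number of arrays limits the precision. Gene symbols came from the platform annotation.

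The fit was tested on simulated data.

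Residuals of KLE arrays with the same letter correlated across genes in every pair (lowest 0.39, median 0.69 for A, 0.53 for B, 0.57 for C). B with C gave a median of 0.53 and A with B -0.60, so A stood apart from B and C. The main tests used group means without the letter. The letter entered as a block in an alternative fit, in the differences within letters and in the letter A comparison. The median for same-numbered arrays of different lines was 0.02, so those share only a number.

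Genes called were named, at most 10 by size, and where under 3 were called the highest and lowest values. Members, lists and this rule were chosen with earlier results of these data known.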

Additional observations from a re-analysis of the deposited data

Results flagged for a closer look

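The difference between the MSH3 and MSH6 hairpins was itself past the test for 2 proteasome genes. PSMC4 differed by -0.34 (limma, adjusted p = 0.047) and PSMD12 by -0.34 (adjusted p = 0.03), MSH3 being the lower side for both. Blocking on the letter gave adjusted p of 0.022 and 0.011, and with median scaling neither passed (adjusted p = 0.79 and 1). The PSMC4 gap was -0.59 in letter A, -0.28 in B and -0.16 in C, and the PSMD12 gap was -0.2, -0.35 and -0.47. No separate test for outlying samples was run in these groups of 3 arrays. The count of genes called for MSH3 against MSH6 changed when single arrays were left out, as given below.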

How the results depend on the processing

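The calls of proteasome genes between hairpins depended on the processing, and those between cell lines less so. The cause of each change was not tested. With median scaling or no normalization, 0 genes were called for hairpin 543, hairpin 603, the MSH6 mean and MSH3 against MSH6. For hairpin 543 the count was also 0 with the filter in every array and with only the groups compared fitted. Only the groups compared gave 0 for MSH3 against MSH6, and normexp, no filter and every probe as a feature gave 1 each. Every probe as a feature gave 2 for hairpin 603 and 2 for the MSH6 mean, PSMC4 and PSMD6 in both. The replicate block by letter gave 5 for hairpin 603, 2 for the MSH6 mean and 7 for MSH3 against MSH6, and changed no other count of hairpins. MCF10A against KLE called 10 genes without normalization, 2 higher and 8 lower, for which the share of all genes is not given here.

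Leaving out 1 array gave 0 to 1 genes for hairpin 062 and for the MSH3 mean (1 each without hairpin 062 replicate 1), 0 to 1 for hairpin 543, 1 to 2 for hairpin 603 (2 without its replicate 1) and 0 to 3 for MSH3 against MSH6 (3 without hairpin 062 replicate 1). Without the 5 letter A arrays, an alternative chosen after seeing the data, the counts were 7 for hairpin 059, 8 for 062, 11 for 603, 12 for the MSH3 mean, 7 for the MSH6 mean, 12 for MSH3 against MSH6, 1 for 603 against 543 and 4 for 062 against 059. Between 5.49% (hairpin 543, with 1 proteasome gene) and 17.7% (hairpin 603) of all genes were then called, so many other genes were called too. The share of all genes for each comparison stands with the letter A results.

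Among genes called lower in letter A, PSMB5 and PSMA3 each turned to 0.20 with median scaling and 0.33 without normalization. PSMB2 turned to 0.12 and PSMD3 to 0.04 without normalization. PSMD10 went from called lower (-0.25) to called higher. It is 1 of the 3 base assembly chaperones, which lay at 0.26 to 0.32 with median scaling and 0.39 to 0.44 without normalization. The median of all genes was then 0.151 and 0.277, so PSMB2 and PSMD3 stayed below the median gene. No gene called between cell lines changed direction under either scaling. PSMA8, PSMB11, PSMD5 and PSMD9 averaged at most 0.61 above the array median on the log2 scale, where remaining background understates a difference.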
